A study of Mus musculus with 2 samples.

Results

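The transcripts of 6 enzymes that act on steroid hormones and bile acid precursors in the hepatocyte, Hsd17b6, Hsd17b2, Hsd11b1, Akr1c6, Akr1d1 and Srd5a1, were followed in liver sections of 1 AEG-1-WT and 1 AEG-1-C75S mouse. They were 6 of the 19465 genes in the count tables. The enzymes were chosen by their UMI levels in these same sections and along the same lobule axis used below, so their ratios and gradients are a description and were not tested. Both mice were naive 8-week-old female littermates from a heterozygous cross. The AEG-1-C75S (C75S) mouse carried, by CRISPR knock-in, serine in place of the palmitoylated cysteine of AEG-1, the protein encoded by Mtdh, in the whole body, and the AEG-1-WT (WT) mouse was its unedited control. Sections of fixed, paraffin-embedded liver were profiled with the 10x Visium assay, in which pairs of probes ligated on an RNA are counted by unique molecular identifiers (UMIs) on barcoded spots, each of which holds several cells.

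With 1 section per genotype there was no replicate, spots were not treated as replicates, and every ratio compares these libraries and not the conditions. The 2309 WT spots with at most 50000 UMIs summed to 42246988 UMIs (median 16830 a spot), and the 2163 C75S spots to 41674347 (median 18808). The filter removed 7 and 4 spots. UMIs were summed per section or per group of spots, and levels are given per 1000000 UMIs of all genes (CPM). The sections had 1896 spot barcodes in common, which are slide positions of the common barcode set. Mtdh had 74.4 CPM in WT and 73.3 in C75S, a count that does not show the edited codon and so does not check the labels. The 5 hepatocyte markers Alb, Apoa1, Ttr, Serpina1c and Fgb made up 178500 CPM in WT and 186038 in C75S. A spot sum cannot tell fewer cells of a type from less RNA per cell.

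The liver lobule runs from the portal tract, where blood enters, to the central vein, and hepatocytes along that path express different enzymes. Hepatocytes take up circulating steroids, reduce, oxidise or hydroxylate them, and conjugate them for excretion, and they build bile acids from cholesterol with some of the same reductases. Short-chain dehydrogenases such as HSD17B6, HSD17B2 and HSD11B1 interconvert hydroxyl and keto groups. AKR1C6 is an aldo-keto reductase, and AKR1D1 and SRD5A1 saturate the double bond of the first steroid ring in the beta and the alpha configuration. The spots of each section were ordered by the ratio of Cyp2f2, a periportal cytochrome P450, to Cyp2e1, a pericentral one, after adding 1 to each count, and were divided into 5 bins of nearly equal numbers of spots. Bin 1 is the most periportal and bin 5 the most pericentral. Intervals are 95% exact intervals and cover counting error only.

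In the mm10 build, Hsd17b6 lies at chr10:127990936-128007611 on the minus strand, Hsd17b2 at chr8:117701904-117759027 on the plus strand and Hsd11b1 at chr1:193221634-193264075 on the minus strand. Akr1c6 lies at chr13:4434306-4457877 and Akr1d1 at chr6:37530173-37568815, both on the plus strand, and Srd5a1 at chr13:69573449-69611442 on the minus strand. The upstream sequences of Hsd17b6 and Akr1c6 are shown because these enzymes had the steepest gradients of the 6 and ran in opposite directions. Each is the stretch from 250 to 51 bases before the RefSeq start on GRCm38.p6 (mm10), written 5′ to 3′ on the strand of the gene. Hsd17b6 is at chr10:128007662-128007861 (minus strand) and Akr1c6 at chr13:4434093-4434292 (plus strand). Capitals mark the CCAAT box, which reads as ATTGG where it lies on the other strand, and the TATA box, TATAAA.
Hsd17b6: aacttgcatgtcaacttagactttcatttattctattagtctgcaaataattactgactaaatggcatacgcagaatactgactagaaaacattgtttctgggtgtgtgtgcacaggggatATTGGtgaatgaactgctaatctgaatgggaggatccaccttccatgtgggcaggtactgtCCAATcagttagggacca
Akr1c6: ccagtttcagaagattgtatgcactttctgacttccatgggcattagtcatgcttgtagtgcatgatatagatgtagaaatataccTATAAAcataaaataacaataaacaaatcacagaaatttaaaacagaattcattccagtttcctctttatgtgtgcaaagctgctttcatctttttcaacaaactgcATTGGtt
RefSeq windows of this length were matched for 5 of the 6 enzymes, all but Hsd17b2, and searched on both strands for 6 motifs. Hsd17b6 had 2 windows, and the matches given are those of the window shown. The Hsd11b1 window, at chr1:193242411-193242610, lies inside the gene span given above and so belongs to an internal start. Of 32851 such windows over all genes, 28.4% held the CCAAT box (CCAAT), 9.14% the TATA box (TATAAA) and 11.4% a nuclear receptor half-site (AGGTCA). The core of TCF and LEF sites (CTTTGA) was in 11.8%, an E-box (CACGTG) in 4.34% and a glucocorticoid receptor half-site (AGAACA) in 13.2%. No motif overlapped another in the windows shown. The Hsd17b6 window held the CCAAT box 68 bases before the start and again, on the other strand, 129 bases before it. The Akr1c6 window held the TATA box 164 bases and the CCAAT box 57 bases before the start, the latter on the other strand. Hsd11b1 and Srd5a1 held the CCAAT box once each, and Akr1d1 held the nuclear receptor half-site at 232 and 210 bases before its start, both on the other strand. The remaining 3 motifs occurred in none of the 5 windows. The windows ranged from 32.5% G and C in Akr1c6 to 63% in Srd5a1, and the median over all windows was 51.5%. These matches describe letters and do not show binding. The windows end 51 bases before the start, so a TATA box nearer to it would not have been found.

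Hsd17b6, which oxidises androstanediol and related hydroxysteroids, differed most between the sections among the 6. Over the whole section it had 11455 UMIs in WT (95% exact Poisson interval 11246 to 11667) and 19591 in C75S (19318 to 19867), or 271 and 470 CPM. The level was 1.73-fold higher in C75S, with a log2 ratio of 0.79 (95% exact binomial interval 0.76 to 0.83). Of the 10389 genes that reached 200 UMIs in the sum of both sections, which include all 6 enzymes, 82 had a higher log2 ratio. In 2.44% of these genes the log2 ratio was above 0.5 and in 4.61% it was below -0.5. Of the 6 enzymes, 1 (Hsd17b6) was above and 0 below, and Hsd17b2, at 0.43, lay just under the limit. The ratio was part of what chose the enzymes, so nothing is read from these counts. Over all genes counted the log2 ratios had a median of -0.05 and ran from -0.48 at the low 5% to 0.35 at the high 5%, and the 6 enzymes had a median of 0.07.

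Hsd17b6 had its highest level at the periportal end of both sections. From bin 1 to bin 5, the WT section had 470, 360, 255, 174 and 100.3 CPM. The C75S section had 711, 577, 469, 354 and 243 CPM. In both sections every bin was lower than the one before it, without overlap of neighbouring intervals. Bin 1 over bin 5 was 2.23 on the log2 scale in WT (2.12 to 2.34) and 1.55 in C75S (1.48 to 1.63). Over all genes counted, 2.63% were above 0.5 in both sections and 4.02% below -0.5. Of the 6 enzymes, Hsd17b6 and Srd5a1 were above and Akr1c6 was below, and Hsd11b1, at 0.47 and 0.44, lay just under the upper limit. In WT, 36 of the 10389 genes had a higher log2 gradient than Hsd17b6.

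**Figure D1:**
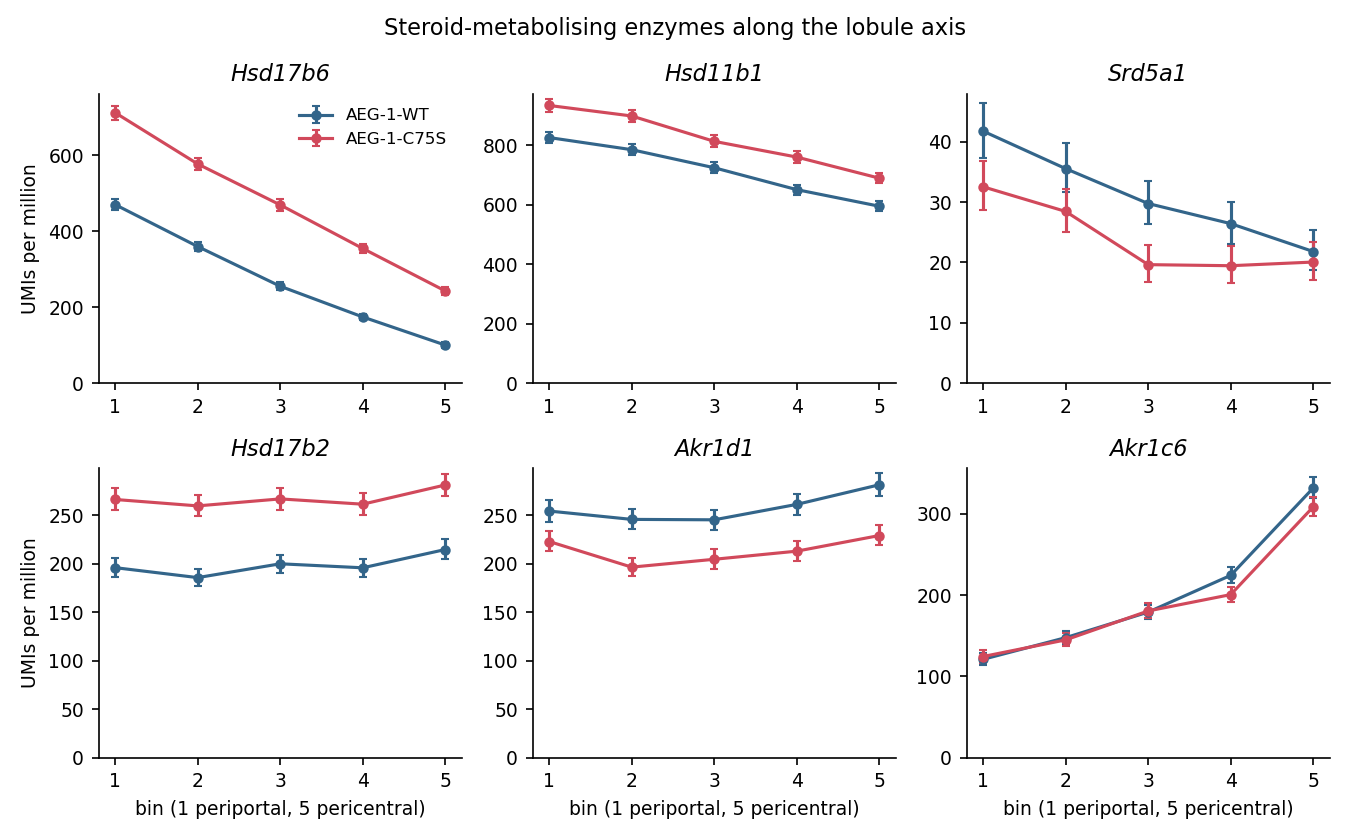
UMIs per 1000000 (y axis, from 0) of each of the 6 enzymes in the 5 bins of spots from periportal to pericentral (x axis), in the WT section (blue) and the C75S section (red). Bars are 95% exact Poisson intervals of the UMI sum, and the y axes differ between panels. Hsd17b6 ran from 470 to 100.3 in WT and from 711 to 243 in C75S, while Akr1c6 ran the other way.

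Whether the Hsd17b6 gradient was shallower in C75S depends on the scale. On the log2 scale the ratio between the sections was 0.60, 0.68, 0.88, 1.02 and 1.27 from bin 1 to bin 5, so the fold was 1.51 at the periportal end and 2.42 at the pericentral end. The log2 gradient was lower in C75S by 0.68 (interval of the difference, C75S minus WT, -0.81 to -0.54). In CPM, the excess of C75S was 242, 217, 214, 180.1 and 142 over the same bins. The CPM difference between bin 1 and bin 5 was 369 in WT (95% interval by the normal approximation 353 to 386) and 469 in C75S (447 to 490). The excess in CPM was thus higher at the portal end and the ratio higher at the central end.

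**Figure D2:**
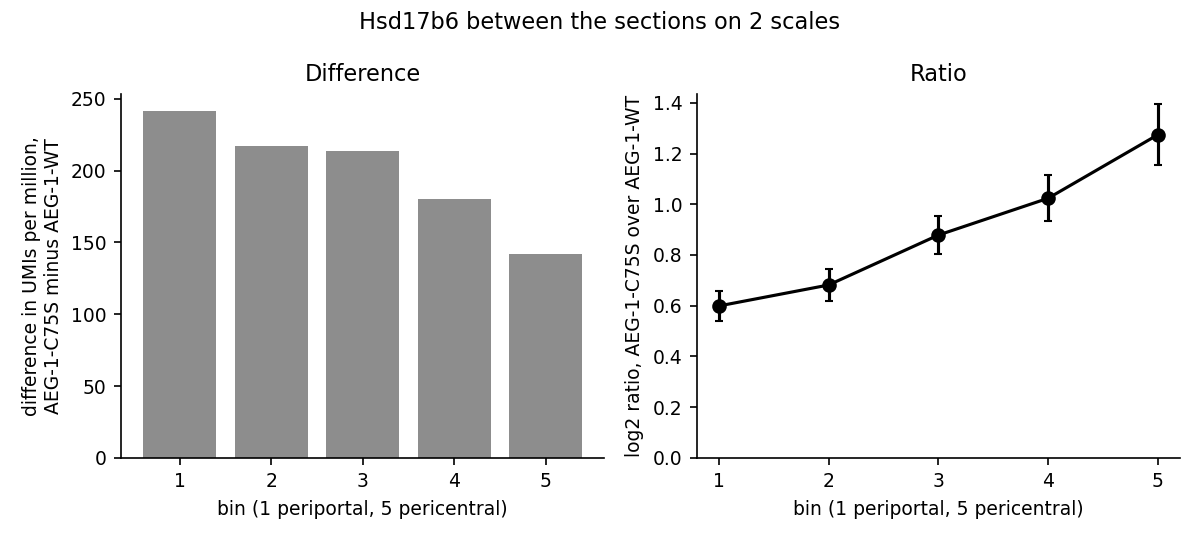
Hsd17b6 in C75S against WT in each bin (x axis), as the difference in UMIs per 1000000 (left, bars from 0) and as the log2 ratio with its 95% exact binomial interval (right). The difference goes from 242 in bin 1 to 142 in bin 5, while the log2 ratio goes from 0.60 to 1.27.

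Cyp2f2 and Cyp2e1, which define the axis, had log2 gradients of 2.29 and -2.39 in C75S against 2.72 and -2.61 in WT. Sorting the spots by these genes sets part of their gradients, so they are no comparison for Hsd17b6. Among 44 other genes with at least 1000 UMIs and a mean log2 gradient above 1, 29 were shallower in C75S. The median difference of these genes was -0.13, and 4 had a difference below that of Hsd17b6. With cut points common to both sections, bin 5 held 578 WT spots and 316 C75S spots. The log2 ratio between the sections was 0.27 for Cyp2f2 and -0.07 for Cyp2e1. Common cut points on these genes carry that difference, so the spot numbers do not measure pericentral tissue. The difference of the Hsd17b6 gradients was then -0.46, and the log2 ratio between the sections was 0.60 in bin 1 and 1.05 in bin 5. With Hal and Gls2 over Cyp1a2 and Oat as the axis, the difference was -0.50.

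Hsd17b2, which oxidises estradiol to estrone and testosterone to androstenedione, was higher in C75S by nearly the same ratio in every bin. It had 8377 UMIs in WT (8199 to 8558) and 11131 in C75S (10925 to 11340), or 198 and 267 CPM, a log2 ratio of 0.43 (0.39 to 0.47). From bin 1 to bin 5 the levels were 196, 186, 200.1, 196 and 215 CPM in WT. In C75S they were 266, 260 (259.8), 267, 262 and 281 CPM. The sections did not overlap in any bin, and within a section all neighbours in the order of the levels had overlapping intervals. The log2 ratio lay between 0.39 and 0.48 in the 5 bins. Bin 1 over bin 5 was -0.13 in WT (-0.23 to -0.03) and -0.08 in C75S (-0.16 to 0.01). These gradients took the other sign, 0.13 and 0.06, when spots were thinned to 3000 UMIs. Thinning left a mean of 0.61 UMIs of Hsd17b2 a spot in WT and 0.80 in C75S. The gradients stayed negative in both sections under every other setting run. They are small and the C75S interval included 0, so no direction along the axis is given.

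Hsd11b1, which reduces 11-dehydrocorticosterone to the active glucocorticoid corticosterone, had a moderate periportal gradient of the same size in both sections. It had 30272 UMIs in WT (29932 to 30615) and 34139 in C75S (33778 to 34503), or 717 and 819 CPM, a log2 ratio of 0.19 (0.17 to 0.22). From bin 1 to bin 5 the levels were 826, 785, 725, 651 and 595 CPM in WT. In C75S they were 934, 899, 813, 760.4 and 689 CPM. Each bin was below the one before, and of all neighbours only bins 1 and 2 of C75S had overlapping intervals. Bin 1 over bin 5 was 0.47 on the log2 scale in WT and 0.44 in C75S, a difference of -0.04 (-0.11 to 0.04). Within the bins the log2 ratio between the sections was 0.17 to 0.22. H6pd, which supplies HSD11B1 with its cofactor inside the endoplasmic reticulum, had a log2 ratio of 0.46 between the sections and gradients of 0.01 in WT and -0.05 in C75S.

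Srd5a1, which reduces testosterone to dihydrotestosterone and starts the breakdown of glucocorticoids, had by far the fewest UMIs of the 6. It had 1310 UMIs in WT (1240 to 1383) and 1002 in C75S (941 to 1066), or 31.0 and 24.0 CPM, a log2 ratio of -0.37 (-0.49 to -0.25). The bins had 41.7, 35.5, 29.7, 26.4 and 21.8 CPM in WT. In C75S they had 32.5, 28.4, 19.6, 19.5 and 20.1 CPM. All neighbours in the order of the WT levels had overlapping intervals, and in C75S the only neighbours whose intervals did not overlap were bin 2 and bin 5, with bins 3, 4 and 5 overlapping each other. Bin 1 over bin 5 was 0.94 on the log2 scale in WT (0.67 to 1.21) and 0.70 in C75S (0.41 to 0.99), and the difference of -0.24 (-0.62 to 0.15) was not detectable at this depth. The log2 ratio between the sections was -0.36, -0.32, -0.60, -0.44 and -0.12 over the bins, and the interval of the last included 0.

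Akr1d1, the reductase of bile acid synthesis that also clears glucocorticoids and androgens, was lower in C75S in every bin. It had 10861 UMIs in WT (10658 to 11067) and 8875 in C75S (8691 to 9062), or 257 and 213 CPM, a log2 ratio of -0.27 (-0.31 to -0.23). The bins had 254, 246, 245, 261 and 281 CPM in WT. In C75S they had 223, 196, 205, 213 and 229 CPM. The order of the bins rested on overlapping intervals throughout, with log2 gradients of -0.15 (-0.23 to -0.06) and -0.04 (-0.13 to 0.05). The log2 ratio between the sections lay between -0.32 and -0.19. Akr1d1 and Srd5a1, which give the beta and the alpha products of the same substrates, were both lower in C75S. Of all genes counted, 15.3% had a lower log2 ratio than Akr1d1 and 9.02% a lower one than Srd5a1, so nothing is read from the pair.

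Akr1c6, which reduces androstenedione to testosterone in mouse liver, was the pericentral enzyme of the 6 and had similar levels in both sections. It had 8434 UMIs in WT (8255 to 8616) and 7993 in C75S (7819 to 8170), or 199.6 and 192 CPM. The log2 ratio of -0.06 (-0.10 to -0.01) was close to the all-gene median. From bin 1 to bin 5 the levels were 121, 148, 179, 224 and 331 CPM in WT. In C75S they were 124, 145, 180.4, 201 and 308 CPM. Each bin was above the one before in both sections, without overlap of neighbouring intervals. Bin 1 over bin 5 was -1.45 on the log2 scale (-1.56 to -1.35) in WT and -1.31 (-1.42 to -1.20) in C75S, a difference of 0.14 (-0.01 to 0.29). In WT, 81 of the 10389 genes had a lower gradient. The log2 ratios in bins 4 and 5 were -0.16 and -0.10 with separate bins. With Hal and Gls2 over Cyp1a2 and Oat as the axis they were -0.10 and -0.14. With common cut points they were 0.03 (-0.06 to 0.13) and 0.08. The sign thus depended on the cut points, and no direction is given. The Akr1c genes are close paralogs, and whether each probe tells them apart was not tested.

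**Figure D3:**
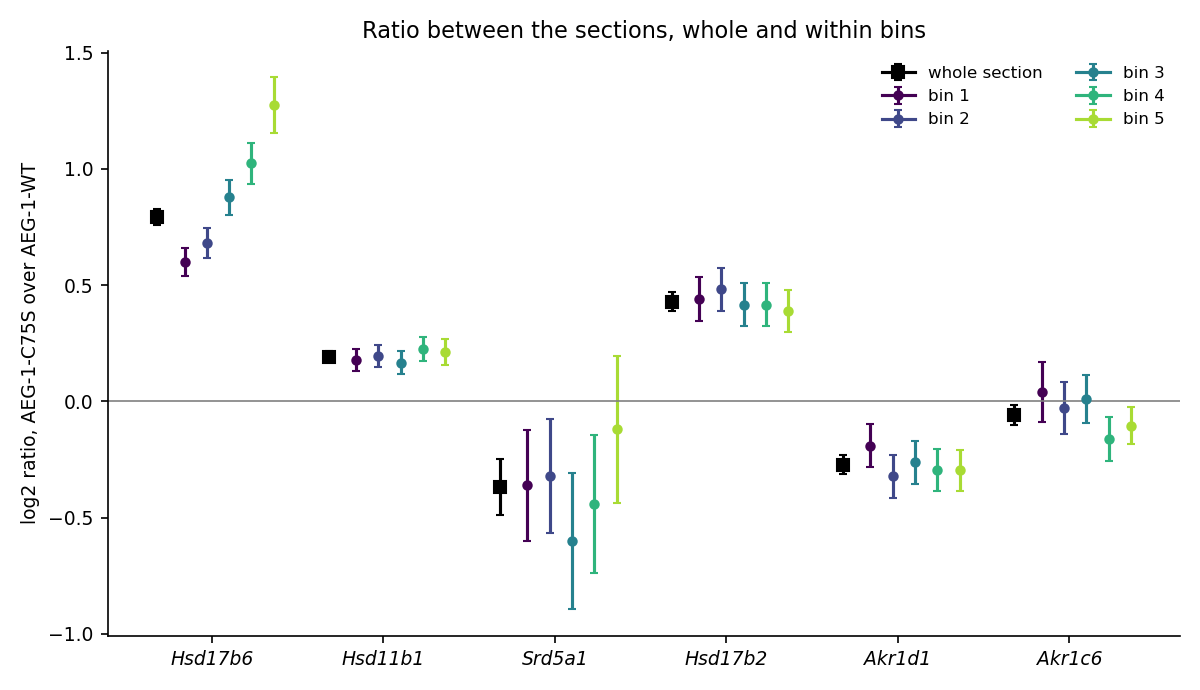
Log2 ratio of C75S over WT (y axis) for each enzyme, over the whole section (black square) and within each bin (circles, from dark in bin 1 to light in bin 5), with 95% exact binomial intervals of the UMI sums. Hsd17b6 goes from 0.60 to 1.27 along the bins, Hsd17b2 stays between 0.39 and 0.48, and Akr1d1 stays between -0.32 and -0.19.

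Spots differed in how often they held a UMI of each enzyme. At the depth measured, Hsd17b6 was found on 92.7% of WT spots and 97.9% of C75S spots. After thinning each spot to 3000 UMIs, without the 4 and 3 spots below that depth, the shares were 53.1% (95% exact binomial interval 51.0 to 55.1) and 71.8% (69.9 to 73.7). Within the thinned WT section, the share went from 76.4% in bin 1 to 24.5% in bin 5, and in C75S from 85.4% to 51.3%. The other thinned shares, in WT and C75S, were 45.1% and 54.8% for Hsd17b2 (94.9% and 96.2% unthinned) and 88.5% and 92.4% for Hsd11b1 (99.8% in both unthinned). They were 52.9% and 46.2% for Akr1d1 (97.5% and 94.5% unthinned) and 9.02% and 6.30% for Srd5a1 (41.4% and 35.4% unthinned). The order of the sections in each of these shares was that of the CPM. Akr1c6 was on 42.5% of thinned WT spots and 39.6% of C75S spots (90.7% and 89.6% unthinned).

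The variance of the thinned counts over their mean showed how far spots differed beyond counting. For Hsd17b6 it was 1.24 in WT and 1.26 in C75S over all spots, and 1.05 and 1.08 within bins. For Akr1c6 it was 1.12 and 1.25 over all spots, and 1.04 and 1.14 within bins. The spread beyond counting was thus mostly between bins for Hsd17b6, while Akr1c6 in C75S kept more of it within them. Most of the whole variance of both was within bins. Hsd17b2, Hsd11b1, Akr1d1 and Srd5a1 lay between 0.98 and 1.04 over all spots.

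The label of hepatocyte enzymes was checked in the spots richest in connective tissue genes, the 5% with the highest share of Col1a1, Col1a2, Col3a1, Dpt, Mgp and Gsn. There were 116 such spots in WT and 109 in C75S, set against the 421 and 395 other spots of bin 1. Cholangiocyte markers were higher there by 2.005 and 2.45 on the log2 scale, and hepatocyte markers lower by 0.28 and 0.22 (log2 ratios of -0.28 and -0.22). Stellate cell markers had log2 ratios of 0.58 and 0.39 and red blood cell genes of 1.48 and 0.74. Kupffer cell markers had -0.44 and -0.32, and sinusoidal endothelial markers 0.04 and 0.06. Hsd17b6 had log2 ratios of -0.66 and -0.49, Hsd11b1 of -0.20 and -0.16, and Akr1d1 of -0.15 and -0.13. Hsd17b2 had -0.22 and -0.09, the latter with an interval of -0.25 to 0.06, and Srd5a1 had -0.18 (-0.55 to 0.17) and -0.56. Akr1c6 was higher in the connective-tissue-rich spots than in the other bin 1 spots, by 0.41 and 0.50, unlike the hepatocyte markers. Its 164 and 180 CPM there were below its whole-section levels of 199.6 and 192 CPM. Only 41 and 38 of these spots were in bin 1, so their place along the axis differs from that of the spots they were set against. Bin 1 is where Akr1c6 was lowest and Hsd17b6 highest, and the hepatocyte markers also fell from bin 1 to bin 5. Hsd17b6 had 300 and 505 CPM in the connective-tissue-rich spots, above its whole-section 271 and 470 CPM. The comparison cannot separate cell content from place along the axis, so it does not decide the hepatocyte label of any enzyme.

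Markers of other cells differed between the sections beside the enzymes. The 5 Kupffer cell markers summed to 866 CPM in WT and 1159 in C75S, with 5 of 5 higher in C75S, and the 4 stellate cell markers to 551 and 703 CPM, with 4 of 4 higher. The 5 cholangiocyte markers summed to 129 and 96.6 CPM and the 6 connective tissue genes to 198 and 99.2 CPM, with 0 of 5 and 0 of 6 higher in C75S. Sinusoidal endothelial markers were at 375 and 393 CPM, with 3 of 4 higher in C75S, and red blood cell genes at 611 and 404 CPM, with 0 of 3 higher. The part of these differences in the enzyme ratios was not tested. Of 5 adrenal cortex genes, Cyp11b1, Cyp11b2 and Mc2r had 0 UMIs in both sections. An upper 95% Poisson limit alone, unlike the paired limits used elsewhere, allows up to 3 UMIs each. All 5 summed to 78 UMIs in WT and 67 in C75S. Cyp11a1 had 1 and 3 of these, and the rest were of Star.

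A list of 63 other genes of steroid metabolism, transport and reception was set beside the 6 enzymes, and 42 of them reached 200 UMIs in the same sum. Of these, 4 had a log2 ratio between the sections above 0.5, 6 had one below -0.5 and 32 lay between, beside 2.44% above and 4.61% below among all genes counted, with a median of -0.13 against -0.05 over all genes. Along the axis, 4 were above 0.5 in both sections and 15 below -0.5, beside 2.63% above and 4.02% below among all genes counted. The median gradients of the list were -0.37 in WT and -0.35 in C75S, against -0.12 and -0.09 over all genes.

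**Figure D4:**
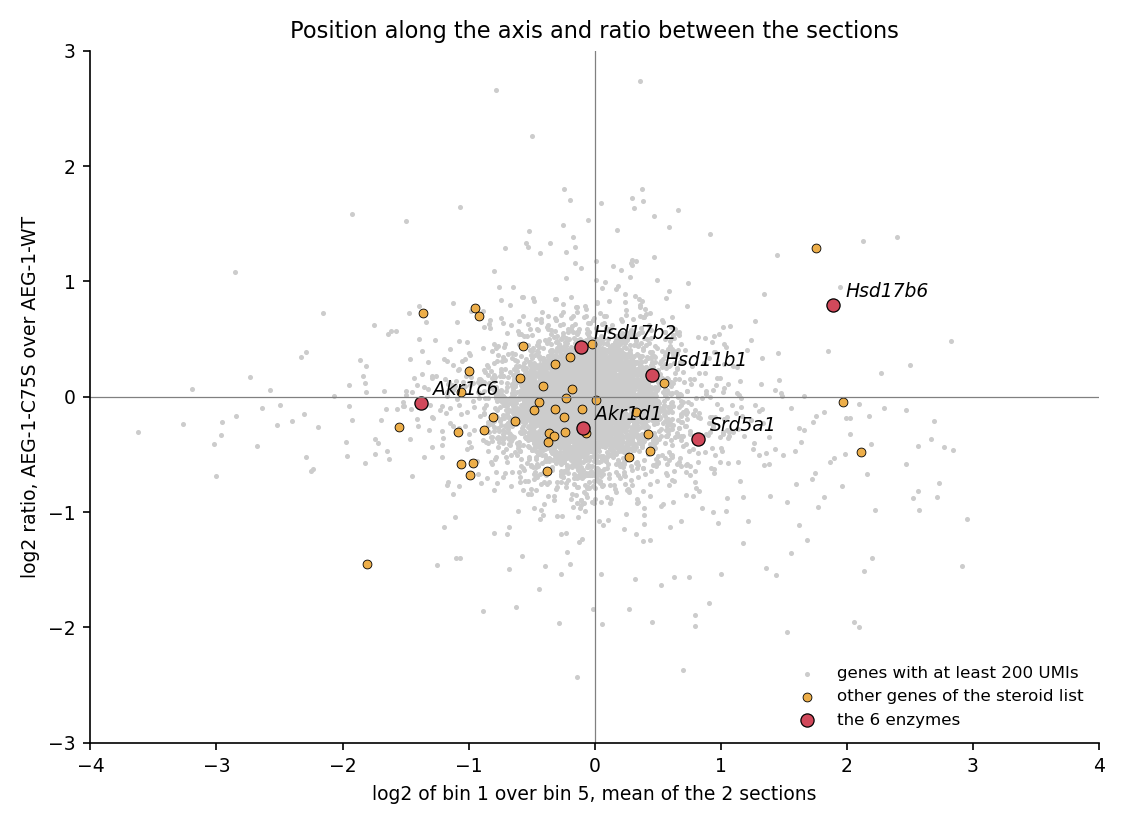
Log2 of bin 1 over bin 5, averaged over the sections (x axis, periportal to the right), against the log2 ratio of C75S over WT (y axis), for 10387 genes with a value on both axes (grey), the 42 other genes of the steroid list (orange) and the 6 enzymes (red). Hsd17b6 lies at the upper right and Akr1c6 far to the left, and 5 genes lie outside the axes.

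Among the other dehydrogenases, Hsd17b13, a lipid droplet protein, had gradients of 2.002 and 1.93 in WT and C75S, on the same side as Hsd17b6, with a ratio between the sections of -0.04. Dhrs9, a retinol and hydroxysteroid dehydrogenase, had 61 UMIs in WT and 147 in C75S, a log2 ratio of 1.29 (0.85 to 1.74). Its gradients had wide intervals, at 1.996 (0.54 to 3.77) in WT and 1.51 (0.73 to 2.35) in C75S. Hsd17b10, a mitochondrial dehydrogenase, had a ratio of -0.30. Of the aldo-keto reductases, Akr1c20 ran the same way along the axis as Akr1c6, with gradients of -1.20 and -0.98, whereas Akr1c19 had 0.31 and 0.24. Their ratios were -0.30 and -0.52, and Akr1c12 had -0.32, with gradients of -0.49 and -0.22. Srd5a2, the other steroid reductase with the function of Srd5a1, had a ratio of -0.32 (-0.57 to -0.07) from 299 and 236 UMIs. Its gradients were 0.57 (0.02 to 1.14) in WT and 0.27 (-0.33 to 0.88) in C75S. Srd5a3, of dolichol synthesis, had a ratio of -0.01.

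The 3 Hsd3b dehydrogenases that reached 200 UMIs were pericentral in both sections. Hsd3b7, of bile acid synthesis, had gradients of -1.10 and -0.90 and a ratio of 0.23. Hsd3b3 had gradients of -0.92 and -1.06 and a ratio of -0.68. Hsd3b2 had 305 UMIs in WT and 202 in C75S, a ratio of -0.57 (-0.84 to -0.31). Among the cytochromes P450, Cyp17a1, which makes androgen precursors, had gradients of 2.25 and 1.98 and a ratio of -0.48, so it shared the axis position of Hsd17b6 and had a ratio of the other sign. Cyp7a1, the rate-limiting enzyme of bile acid synthesis, had gradients of -1.84 and -1.76 and a ratio of -1.45 (-1.51 to -1.39), the largest in size of the list. Cyp8b1, of the cholic acid branch, had 180 and 302 UMIs and a ratio of 0.77 (0.50 to 1.04).

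The sulfotransferase Sult2a5 had 571 UMIs in WT and 933 in C75S, a ratio of 0.73 (0.58 to 0.88). Sult2a7 had 225 and 360 UMIs and a ratio of 0.70 (0.45 to 0.94). Sult2a5 had gradients of -1.80 and -0.92, and Sult2a7 of -1.03 (-1.80 to -0.30) and -0.80 (-1.33 to -0.29). Por, which passes electrons to the microsomal P450s, had gradients of -0.85 and -0.90 and a ratio of -0.29. Its partner Cyb5a had gradients of -0.81 in both sections and a ratio of -0.18, and the mitochondrial Fdxr had a ratio of -0.32. Serpina6, which encodes the corticosteroid-binding globulin of plasma, had gradients of -0.95 and -1.17 and a ratio of -0.58 (-0.62 to -0.55). The estrogen receptor gene Esr1 had gradients of 0.46 and 0.42 and a ratio of -0.47. The Akr1c, Hsd3b and Sult2a families hold paralogs. Whether the probes tell them apart was not tested, so the counts of single members are uncertain.

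The genes whose profiles were most like each enzyme were found by Pearson correlation of log2 CPM over the 10 bins, among 6875 genes with at least 1000 UMIs. The points share 2 libraries and the depth of their bins, and no p is given. A high r takes no account of the size of a gradient or of a ratio between the sections. For Hsd17b6 they included St6gal1 (r = 0.982) and Wsb1 (0.981), and for Hsd11b1 they included Apoc3 (0.984) and Ctsc (0.979). For Hsd17b2 they were Insig2 (0.989), Clpx (0.988) and Kdm6a (0.986). Hsd17b2 varied less along the axis than between the sections, so its r mostly follows the sections. The log2 ratios of C75S over WT were 0.78 for Insig2, 1.26 for Clpx and 0.49 for Kdm6a, against 0.43 for Hsd17b2. For Akr1c6 they were Aars (0.994), Aldh2 (0.994) and F5 (0.992), all with shallower gradients than Akr1c6. For Akr1d1 they were Alkbh5 (0.992), Adk (0.984) and Sephs2 (0.983), with log2 ratios between the sections of -0.33, -0.19 and -0.39. Akr1d1 had a ratio of -0.27 and smaller gradients, of -0.15 and -0.04, so its r also follows the sections. For Srd5a1 they were Gys2 (0.980), Gas2 (0.973) and Maob (0.971).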

How the data were processed

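RNA was measured on 1 liver section per genotype with 10x Visium for fixed tissue. The authors aligned probe reads with Space Ranger 2.0.1 to the mm10 reference, and the deposited tables hold raw UMI counts of 19465 genes per spot, without normalization. Space Ranger and Seurat 4.3.0 are named in the submitters' processing notes. For 11 repeated gene symbols, none of them an enzyme studied here, the entry listed first was taken. Spot coordinates were not used here, so the axis rests on expression alone.

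Spots with more than 50000 UMIs were left out, as in the methods of the study, and all spots kept had 100 to 7000 genes. Sums, ratios and figures used numpy 2.4.6, pandas 2.3.3, scipy 1.17.1 and matplotlib 3.10.9 under python 3.11.15, and TMM factors with edgeR 4.0.16 in R 4.3.3. Each ratio is of UMI sums over total UMIs. Intervals (95%) are exact Poisson for sums and exact binomial (Clopper-Pearson) for shares and ratios, and those of differences of gradients or of CPM use the normal approximation. No test was made, since each genotype had 1 section. Groups were taken from the labels.

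Genes named were the 6 enzymes, in each role of the steroid list the 2 genes with the largest absolute ratio and the 2 with the largest absolute mean gradient, and for each enzyme the 3 genes of highest correlation. Of the genes this rule names, 2 are not reported here. Cyp2f2, Cyp2e1 and Mtdh are also given. The enzymes, the lists and the alternatives were chosen with earlier results of these data known. The programs were tested on simulated counts. The alternatives were other scalings, axis markers, cut points, 3 bins in place of 5, thinning to 3000 UMIs, no spot filter and minimums of 50 or 1000 UMIs.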

Additional observations from a re-analysis of the deposited data

How the results depend on the processing

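The ratios between the sections kept their direction for all 6 enzymes under every alternative run, though Akr1c6 came close to 0, and 27 of 42 recomputed values stayed within the counting interval. TMM factors, centring on the median gene and leaving out the 20 most abundant genes raised all of them. The rise was about the size of the all-gene median of -0.05, with the other sign. With TMM factors the log2 ratios were 0.85 for Hsd17b6, 0.49 for Hsd17b2, 0.25 for Hsd11b1, -0.0015 for Akr1c6 and -0.22 for Akr1d1, and centred on the median gene they were 0.84, 0.48, 0.24, -0.0096 and -0.22. Without the 20 most abundant genes in the total they were 0.84 for Hsd17b6, 0.47 for Hsd17b2, 0.24 for Hsd11b1 and -0.23 for Akr1d1. With equal weight per bin Hsd17b6 was at 0.89.

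Of 96 recomputed gradients 74 stayed within the counting interval. Hsd17b6 in WT had a gradient of 1.98 with the other axis markers, 2.11 with common cut points, 1.96 with thinned spots and 1.76 with 3 bins. In C75S it had 1.66 with common cut points, 1.27 with thinned spots and 1.24 with 3 bins. Its difference of gradients was -0.50, -0.46 and -0.52 with other axis markers, common cut points and 3 bins. Akr1c6 had -1.23, -1.27 and -1.14 in WT and -0.98, -1.10 and -1.04 in C75S with other axis markers, thinned spots and 3 bins, and a difference of -0.031 with common cut points. Hsd11b1 had 0.42 with 3 bins in WT, and 0.38 in C75S with 3 bins or thinned spots. Thinned spots turned Hsd17b2 to 0.13 in WT and 0.064 in C75S, and gave Akr1d1 -0.30 in WT with a difference of 0.30, and Akr1d1 in C75S was 0.069 with the other axis markers. An axis by Cyp2f2 alone, chosen after seeing the data like the one by Cyp2e1 alone, gave 1.46 for Hsd17b6 in C75S and -1.29 for Akr1c6 in WT. Common cut points turned the ratio of Akr1c6 to 0.031 in bin 4 and 0.081 in bin 5, and the other values within bins kept their direction or had intervals that included 0. The ends of 3 bins are less distant than those of 5, and the cause of these shifts was not tested.

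With a minimum of 50 UMIs, 400 genes had a ratio above 0.5 and 849 one below -0.5. In both sections, 534 had a gradient above 0.5 and 562 one below -0.5. With 1000 UMIs, 130 and 209 genes passed by ratio and 114 and 253 by gradient. More genes were tested at 50 UMIs and fewer at 1000, so these counts cannot be set beside the shares given above. No paired analysis was possible because each genotype had 1 section. Depth limits Srd5a1 most, and counting intervals say nothing of the spread between animals, sections or lobes.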
